A study of Schizosaccharomyces pombe with 8 samples.

Results

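The hsr1 locus is a 6 kb stretch of fission yeast chromosome I between the genes pcs2 and snt2, from 5472 bp before the hsr1 gene to 527 bp past its start. It holds a pair of hotspots of DNA ends immunoprecipitated with a protein of the meiotic chromosome axis, and the call of the left one depends on the library. Its members are the ligated pairs of DNA ends with at least 1 end in that stretch, and the stretch itself was chosen because its ends were dense in these same libraries. There were 677 such pairs among 101984 in the interacting library and 1236 among 123434 in its de-crosslinked control. Pairs that lay within 500 bp of each other at both ends were counted once as 1 ligation event, since copies of 1 junction appear as many pairs. Counted so, the locus had 245 of 35511 events and 552 of 56018, respectively. A locus event stood for 2.76 pairs in the former and 2.24 in the latter, against 2.87 and 2.20 over all events.

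During meiotic prophase, fission yeast chromosomes carry linear elements, the counterpart of the axial part of the synaptonemal complex. Rec27 is a small coiled-coil protein of these elements and is known to be concentrated where the Spo11 homologue Rec12 makes the DNA breaks that start recombination. Break hotspots in this yeast often lie in long intergenic regions, and many of those are transcribed into noncoding RNA.

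Both groups came from Schizosaccharomyces pombe of genotype pat1-114 rec12Δ that carried Rec27 tagged with GFP and an intact rec8. The pat1-114 allele is temperature-sensitive and lets a culture enter meiosis together at 34 °C, and the rec12 deletion removes the enzyme of meiotic breaks, so that all values describe chromosomes without them. Cells starved of nitrogen for about 18 h were harvested 3.5 h after meiosis was started, fixed with 1% formaldehyde and immunoprecipitated through GFP. The interacting library was ligated while the DNA was still crosslinked to protein, whereas the de-crosslinked library had its crosslinks taken off first, which makes it the control for joining of DNA that protein no longer held. It is called the control here, and values given in pairs without a library name are for the interacting library and then the control. Each group was 1 library, and these 2 of the 8 samples in the series were analysed. The median 1 kb bin held 12 and 15 ends, and the deleted gene rec12 held 1 end in each. None of the samples is an input library, so that Rec27 binding and any other source of dense ends cannot be told apart.

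Sequences of 3 windows of 300 bp show the DNA that the dense and sparse places of the locus are made of. They are plus-strand sequence of RefSeq assembly ASM294v3, chosen by the count of event ends in the libraries, and capitals mark runs of at least 7 A or 7 T. The windows are the densest window of the left hotspot (chrI:1952658-1952957), the densest window of the right hotspot before the hsr1 transcript (chrI:1955528-1955827) and the sparsest window between the hotspots (chrI:1953596-1953895).
densest window of the left hotspot: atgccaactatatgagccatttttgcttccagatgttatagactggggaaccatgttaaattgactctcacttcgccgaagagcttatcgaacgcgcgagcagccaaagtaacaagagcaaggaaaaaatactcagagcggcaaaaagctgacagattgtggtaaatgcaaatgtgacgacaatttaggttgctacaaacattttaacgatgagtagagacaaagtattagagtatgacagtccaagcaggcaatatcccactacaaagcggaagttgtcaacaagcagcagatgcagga
densest window of the right hotspot before hsr1: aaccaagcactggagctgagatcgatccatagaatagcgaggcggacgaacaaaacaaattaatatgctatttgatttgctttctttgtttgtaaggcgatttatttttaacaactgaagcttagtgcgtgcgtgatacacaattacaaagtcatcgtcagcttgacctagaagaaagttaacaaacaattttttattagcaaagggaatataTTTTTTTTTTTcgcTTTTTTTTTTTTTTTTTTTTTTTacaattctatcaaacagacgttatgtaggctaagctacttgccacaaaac
sparsest window between the hotspots: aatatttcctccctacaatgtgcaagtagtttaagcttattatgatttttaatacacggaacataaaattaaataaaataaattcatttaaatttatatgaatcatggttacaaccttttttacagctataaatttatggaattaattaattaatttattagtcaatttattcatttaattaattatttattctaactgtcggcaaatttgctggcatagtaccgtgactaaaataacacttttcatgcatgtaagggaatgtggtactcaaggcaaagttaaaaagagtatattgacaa
The left window held 10 and 38 event ends and had a GC content of 42.3%. The right window held 47 and 67 event ends, had a GC content of 32.7% and contained an unbroken run of 23 T. Several of its interacting event ends, and some of its control event ends, lay at the same base, 1955741, where the first run in capitals begins. The sparse window held 1 event end in each library and had a GC content of 25.0%. The dense windows thus differed more from each other in GC content than the right one did from the sparse one. A run of 7 A on either strand occurs in 29.2% of the 41905 windows of 300 bp into which the genome was divided.

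Motifs of factors known at break hotspots or stress genes did not occur in these windows. The core of the Atf1-Pcr1 site, TGACGT, the forkhead motif GTAAACA, the CCAAT box and the stress response element AGGGG were searched on both strands, and the 3 windows held 0 matches. In all genome windows of that length they occurred in 4.76%, 9.16%, 50.1% and 14.5% respectively. Over the whole locus TGACGT was found once, on the minus strand at chrI:1955208-1955213, and GTAAACA at chrI:1954542-1954548 and chrI:1956584-1956590 on the plus strand. A match is a description of the letters and not a bound site.

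The ends were densest in the right part of the locus in both libraries, while the left part stood out less in the interacting library. In the control the successive 1 kb bins of the locus held 155, 130, 145, 280, 297 and 267 ends, or 10.3, 8.67, 9.67, 18.7, 19.8 and 17.8 times the median bin. In the interacting library they held 113, 86, 122, 174, 169 and 129 ends, or 9.42, 7.17, 10.2, 14.5, 14.1 and 10.8 times the median. The last 3 bins were the densest in the control, and in the interacting library when every pair was counted. With each event counted once, the bins stood at 4.80, 5.60, 8.60, 13.8, 10 and 7 times the median in the interacting library and at 10.4, 10, 8.71, 19.6, 16.7 and 13.9 times in the control. The first bin, the left hotspot, was then the lowest of the 6 in the interacting library and above the following 2 in the control. A 1 kb bin counted as a hotspot if its ends in the control reached 10 times the median, which is 150 ends. That rule gave 4 of the 6 bins, against 0.668% of all 12573 bins of the genome, and these counts are what selected the locus. The left hotspot was the first of the bins, and the right hotspot was made of the last 3, from 1955001 on. The left hotspot stood just inside the threshold at 155 ends and the bin from 1954001 just outside at 145. Read in the interacting library, whose threshold is 120 ends and where 0.453% of bins pass, the last 4 bins passed, the first of them with 122 ends, and the left hotspot with 113 did not. With each event counted once in the control, where 0.652% of all bins pass, 5 of the 6 did. Whether the left peak counts as a hotspot therefore turned on the library.

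Density dropped over 1 kb on the left and more slowly on the right. The bin before the locus held 9 and 23 ends. The bins after the locus, from 1958001, 1959001 and 1960001, held 54, 57 and 10 ends in the interacting library against 95, 20 and 14 in the control. The second of these bins had more ends in the interacting library, although by events the counts were 14 and 10. The locus lies within a single stretch of the authors' hot class, from 1949130 to 1960102, which is 10973 bp wide where the median of 451 hot regions is 5314 bp. Of those regions 29 were as wide or wider, and every locus end carried the hot class.

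At a finer scale the profiles of the libraries shared a trough between the hotspots and differed at other places. Over the 24 bins of 250 bp the interacting library ranged from 4 to 68 ends with a median of 33, and the de-crosslinked library from 8 to 123 with a median of 48. The bin from 1953751 to 1954000, between the hotspots, held 4 and 8 ends, the lowest count of each library. The first bin of the locus and the bin from 1954751 also held 4 ends in the interacting library, where the control had 13 and 44. The highest lay at 1956751 to 1957000 in the interacting library and at 1957001 to 1957250 in the control, just before the start of hsr1. With each event counted once, the interacting library was highest at 1955501 to 1955750, with 37 event ends, while the summit of the de-crosslinked library stayed in place with 47. Several of these 37 ends lay at the same base, 1955741, where a run of T begins, mostly in events of 1 pair. Some event ends of the control lay at this base and at the bases next to it as well. The interacting summit by events is thus partly a pile-up at 1 base that is not particular to that library, and its cause was not tested. Across the 24 bins, which share their sequence and its ligation and amplification biases, Pearson's r between the libraries was 0.79 for ends and 0.76 for event ends, as a description. The same measure between ends and GC content was 0.43 and 0.30, and between event ends and GC content 0.15 and 0.28.

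**Figure D1:**
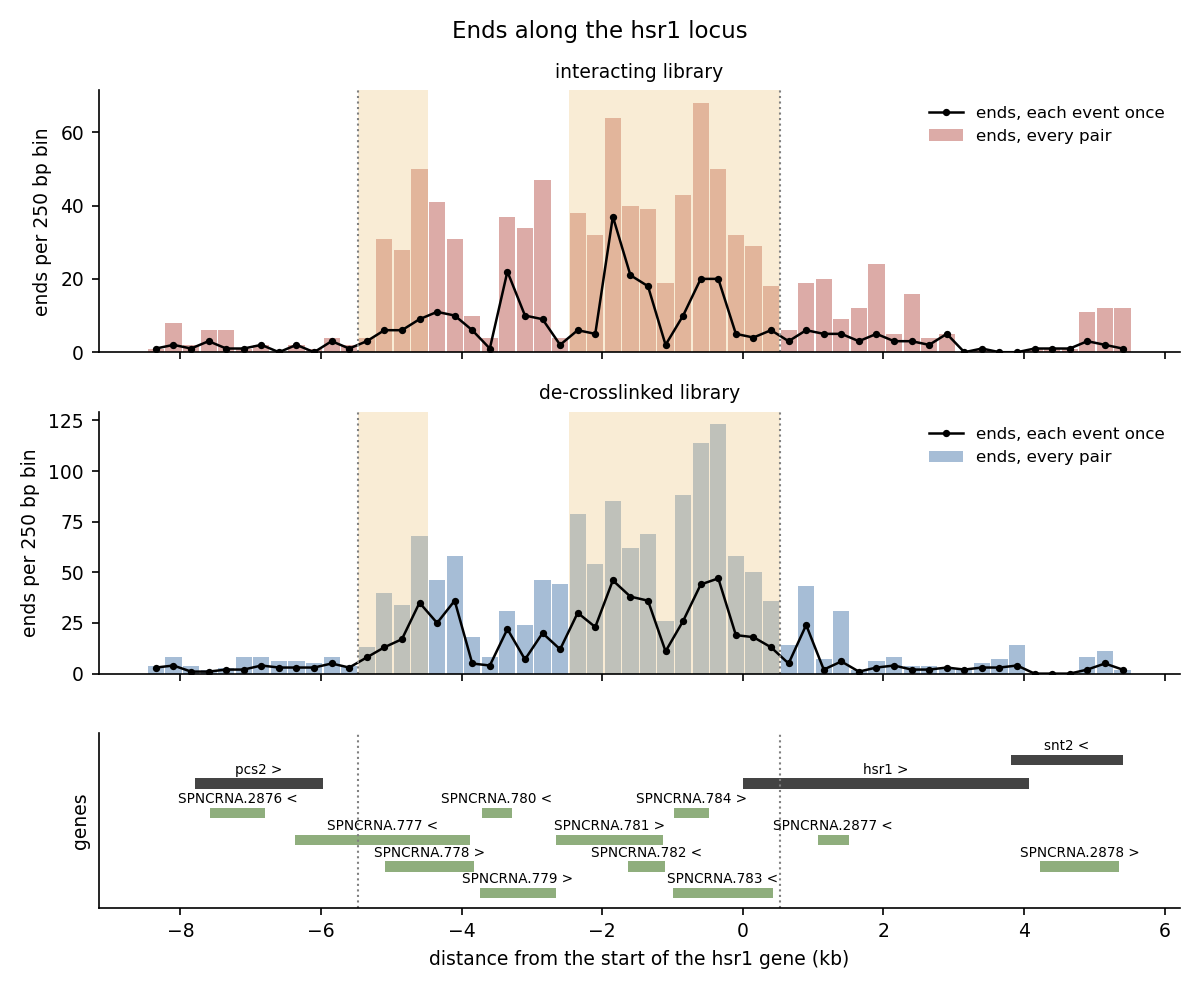
Ends per 250 bp bin (bars, every pair; black line, each event once) against the distance from the start of the hsr1 gene in kb, in the interacting library (top) and the de-crosslinked library (middle), with the genes of ASM294v3 below (arrows give strand; dark, protein-coding; green, noncoding RNA). Shading marks the hotspots, of 1 and 3 kb, and dotted lines the 6 kb locus; both libraries show a trough between the hotspots, of 4 and 8 ends, and their highest bars, of 68 and 123 ends, just left of hsr1.

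The dense stretch, which was chosen for its ends, lay upstream of the hsr1 coding sequence, which starts outside the 6 kb locus. The gene hsr1 (SPAC3H1.11, 1957473 to 1961546, plus strand) encodes a DNA-binding transcription factor known for the response to hydrogen peroxide, and the annotation gives it a 5' UTR of 1838 bp with its coding sequence from 1959311 to 1961059. Only the start of that UTR is inside the 6 kb locus, so the name marks the nearest gene and not the place of the ends. The gap of 5964 bp between pcs2 and hsr1 held 126 and 201 ends per kb. Most of the gap is the stretch chosen for its ends, so its density beside that of the flanks is a description only. The UTR held 65.8 and 101 ends per kb, and the hsr1 coding sequence 26.9 and 17.7. The coding sequences of the neighbours were lower than the gap as well. That of pcs2 (1949678 to 1951508), a phytochelatin synthase gene on the left, held 12.05 and 21.7 ends per kb. That of snt2 (1961293 to 1965076), which encodes a PHD finger subunit of the complex of the histone demethylase Lid2, held 22.4 and 17.3. On the left, density was already low between the locus and the pcs2 coding sequence, in the bin from 1951001. In the hsr1 UTR on the right it was uneven. There the 250 bp bins from 1958251, 1958501, 1958751 and 1959001 held 43, 7, 31 and 2 ends in the control. In the interacting library they held 19, 20, 9 and 12.

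The gap is covered by annotated long noncoding RNA genes, SPNCRNA.777 to SPNCRNA.784, and their densities varied widely. SPNCRNA.784, next to hsr1 and on its strand, was the densest, with 211 and 408 ends per kb. SPNCRNA.783, which overlaps it on the opposite strand and reaches into the hsr1 UTR, held 171 and 326, and SPNCRNA.781 held 151 and 265. SPNCRNA.780, which overlaps the trough, was the sparsest of them with 70.3 in both libraries. By event ends per kb the order differed, with SPNCRNA.781 highest (59.5) and SPNCRNA.777 lowest (22.5) in the interacting library, while in the control SPNCRNA.784 (137) and SPNCRNA.780 (46.8) kept their places. Between these lay, with every pair counted, SPNCRNA.778 (137 and 187), SPNCRNA.782 (135 and 202), SPNCRNA.779 (114 and 101) and SPNCRNA.777 (81.5 and 118 ends per kb). Several of these genes overlap each other, so that their ends are partly the same ends. With 500 bp added on each side, hsr1 had 3.79 and 5.33 times the ends per kb of the median gene, ranks 57 and 37 among 5113 protein-coding genes. That span takes in part of the stretch chosen for its ends, so the ranks are a description only.

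Joins between places of the locus itself were more frequent in the interacting library when pairs were counted. The number of separate joins, which the size of the locus limits, was 8 in each library. Both ends lay in the locus in 116 of the 677 pairs in the interacting library, or 17.1%, with a Clopper-Pearson 95% interval of 14.4% to 20.2%. In the control 38 of 1236 pairs did so, or 3.07%. Over the whole genome, pairs on 1 chromosome less than 6 kb apart made up 5.60% and 3.04% of each library. That share is taken over all pairs and is not bound to a fixed stretch, so it is not the same measure as the share of the locus. The pairs with both ends in the locus spanned 2025 to 4442 bp and 2043 to 2628 bp, respectively, and the tables hold no pair on 1 chromosome closer than 1999 bp. From the left to the right hotspot there were 42 pairs in the interacting library but 1 in the control. Linking within 500 bp chained 77 of the interacting pairs into a single event. Without chaining, the pairs inside the locus made 8 separate joins in each library, and the largest held 22 pairs and 10 pairs. These were 3.17% of 252 and 1.43% of 561 locus events, and no test was made on pairs or joins. Within 6 kb only few joins can lie more than 500 bp apart. The count of separate joins therefore has a low ceiling and cannot show whether the libraries differ.

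Partner ends on other chromosomes were less frequent in the interacting library. Over events with partners from 5 kb away or on another chromosome, 97 of 236 locus events in the interacting library went to chromosome II or III, or 41.1% with a 95% interval of 34.8% to 47.7%. Of the control events 302 of 547 did, or 55.2% with 50.9% to 59.4%. The shares differed between the libraries in a two-sided Fisher's exact test (p of 0.00150 after Benjamini-Hochberg adjustment over 27 tests of partners). With 1 library per group this test, like those that follow, compares the libraries and not the conditions, and all intervals cover counting error only.

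Partners on chromosome I were close to the locus far more often in the interacting library. Within 100 kb lay 24 of its 139 events with partners on chromosome I, or 17.3% with a 95% interval of 11.4% to 24.6%. For the control this was 6 of 245, or 2.45% with 0.904% to 5.25%. The two-sided Fisher's exact test gave an adjusted p of 1.14e-05. A level for each place was taken from the share of all event ends of the same library there, which is what joining of ends without regard to place would give. Against that level, events in the interacting library were 16.6 times as many at 5 to 20 kb, with an exact Poisson 95% interval of 7.98 to 30.6, and the ratio was 7.18 for 20 to 50 kb and 3.66 for 50 to 100 kb. At 100 to 200 kb the ratio was 1.62, with an interval of 0.596 to 3.54 that includes 1, and the intervals of the classes beyond included 1 as well. The ratios of the control were 0.85, 0.86 and 0.76 up to 100 kb, each with an interval that includes 1. An excess over the library's own ends was thus measured up to 100 kb in the interacting library, and at 100 to 200 kb the 6 events could not tell an excess from none.

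Chromosome III took fewer locus events than its level in the interacting library. Its 29 events were 0.63 times the level, with an interval of 0.42 to 0.91, while the 68 events on chromosome II were 0.81 times, with 0.63 to 1.02. The intervals overlap, and no test was made between the chromosomes. In the control chromosome II stood at 0.97 and chromosome III at 1.06 times. There, single distance classes departed a little from 1, with 0.70 (0.48 to 0.99) at 500 to 1000 kb and 1.23 (1.00 to 1.48) at 1000 to 2000 kb. On chromosome I, both sides of the locus took partners in the interacting library at similar ratios, 1.32 on the left from 50 events and 1.31 on the right from 89.

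**Figure D2:**
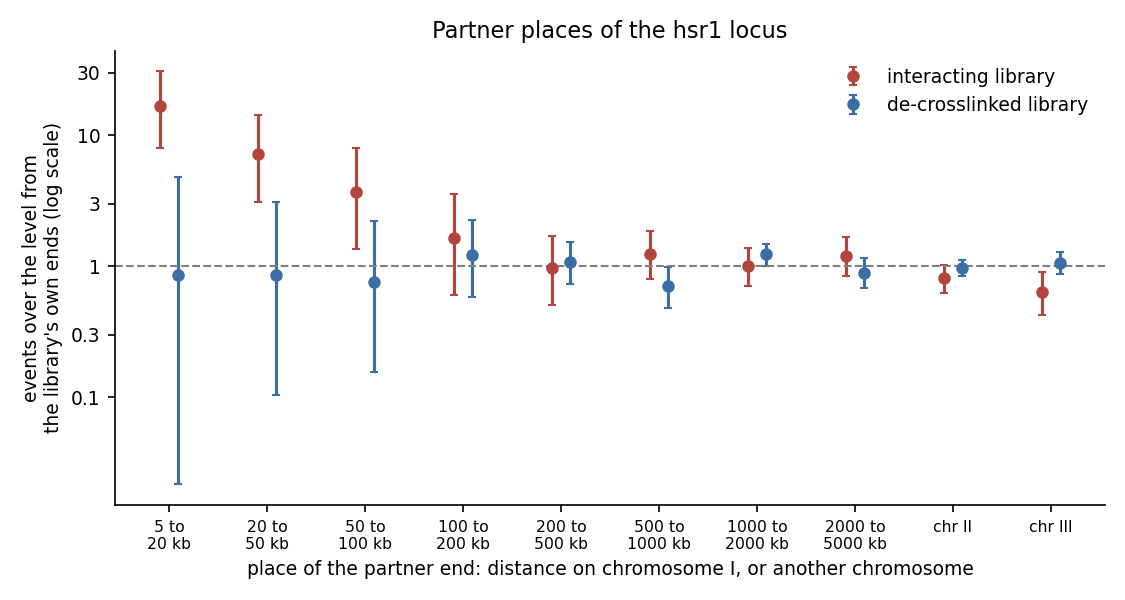
Number of locus events divided by the level from the library's own ends (vertical, log scale) against the place of the partner end (horizontal: distance class on chromosome I in kb, or another chromosome), for the interacting (red) and de-crosslinked (blue) library; bars are exact Poisson 95% intervals and the dashed line marks 1. The interacting ratios fall from 16.6 at 5 to 20 kb to 1.62 at 100 to 200 kb, while the de-crosslinked ratios up to 100 kb, 0.85, 0.86 and 0.76, have intervals that include 1.

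Nearby partners lay in and between genes on both sides of the locus, and more of them were hot on the left. On the left, 13 events of 34 pairs reached 6.027 to 79.807 kb in the interacting library, and 9 of them ended in the hot class. On the right, 11 events of 46 pairs reached 7.164 to 87.876 kb and 0 ended in the hot class. Among all event ends of that library at 5 to 100 kb, 38.6% were hot on the left and 10.1% on the right, so the DNA on offer differed between the sides as well. The hot partner nearest to the locus, between avt3 and pcs2 at 6.6 kb, lies in the same hot region as the locus itself. The de-crosslinked library had 3 events on each side, of which 2 on the left and 0 on the right were hot.

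On the left, the next hot region (1941551 to 1945955) lies 3.175 kb from the region of hsr1, around aru1, which encodes an arginase. It took 4 events of 14 pairs in the interacting library and 1 event of 1 pair in the control. The other left partners included avt3, a vacuolar amino acid transporter gene, the heat shock protein gene pss1 with 4 pairs at 34.675 kb, and the protein kinase gene ppk1 with 2 pairs at 48.617 kb. On the right, snt2 took 3 events, at 7.164, 8.905 and 10.056 kb. The septation kinase gene sid1, which overlaps the phosphatase gene inp53 here, took an event of 18 pairs and another of 3 pairs, at 33.149 and 33.349 kb. An event of 11 pairs joined the locus to dri1, a gene of heterochromatin assembly, at 55.626 kb. The next hot region on the right, 20.177 kb from that of hsr1 and around cyk3, took 0 events in either library. It held only 22 and 29 event ends of any kind, beside 31 and 40 in the next hot region on the left. With so few ends, a count of 0 cannot set the right region apart. Near the locus, hot and cold genes thus both served as partners.

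**Figure D3:**
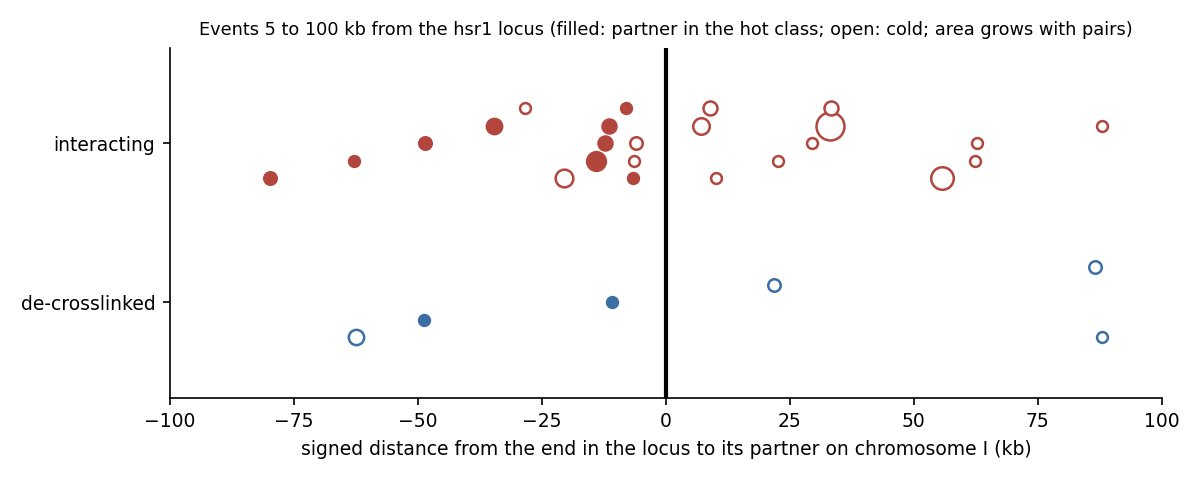
Partner events of the locus at 5 to 100 kb, plotted by the distance of the partner from the locus end in kb (negative, left), in the interacting and de-crosslinked library; each circle is 1 event, its area grows with the number of pairs, and filled circles are partners in the authors' hot class. In the interacting library 9 of 13 events on the left are filled and 0 of 11 on the right.

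Far partners were in the hot class more often than the library's ends as a whole in the interacting library. Over events with partners from 20 kb away or on another chromosome, 109 of 226 partner ends were hot, or 48.2% with a 95% interval of 41.6% to 55.0%, where 35.2% of all event ends were hot. In the control 221 of 546 were hot, or 40.5% with 36.3% to 44.7%, where 38.4% of all event ends were hot. The difference between the libraries did not pass the two-sided Fisher's exact test, with an adjusted p of 0.148. By place, the interacting share was 52.3% for partners over 200 kb away on chromosome I (57 of 109), 46.4% on the other chromosomes (45 of 97) and 35.0% at 20 to 200 kb (7 of 20). The level from all ends at the same places was 36.4%, 34.5% and 32.1%. No test was made between these places, and their intervals overlap.

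Partners in the strict 1 kb hotspots were few. Of the interacting events 18 of 226 ended in another hotspot, or 7.96% where 5.26% of all event ends lie, and of the de-crosslinked events 41 of 546 did, or 7.51% where 7.18% lie. Both intervals, 4.79% to 12.3% and 5.44% to 10.05%, include that level. Of the 48 other hotspots, the interacting events reached 13 and the control events 24.

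The locus was then set against the other events of each library, seen from 1 of their ends, with the same 3 shares. In the interacting library its partners were hot more often than the 35.0% of the rest, with an adjusted p of 0.000414 (two-sided Fisher's exact test). Against events seen from a hot end, of which 39.5% had a hot partner, the adjusted p was 0.0346. Partners on another chromosome made up 57.1% of the rest. From an end on chromosome I, where less of the genome lies on the other chromosomes, they made up 49.8%, and the 41.1% of the locus was lower with an adjusted p of 0.0387. For the control the share of the rest was 63.0% overall and 55.3% from an end on chromosome I, and against the latter the locus at 55.2% had an adjusted p of 1. The share within 100 kb, among partners on the same chromosome, was 24.6% for the rest in the interacting library and 17.3% for the locus, with an adjusted p of 0.142. For the rest seen from an end on chromosome I this share was 21.2%, with an adjusted p of 0.511 (two-sided Fisher's exact test). In the control it was 4.53% for the rest and 2.45% for the locus, with an adjusted p of 0.308. The locus thus had a low share of other chromosomes in the interacting library while its share of near partners was not above that of the rest.

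Against 2 other strong hotspots of chromosome I, chosen after their values were seen, the locus also had fewer partners on other chromosomes in the interacting library. The hotspot at gti1, a gene that induces gluconate transport, had 110 of 199 events with such partners, or 55.3%, and the adjusted p of the two-sided Fisher's exact test was 0.0147. The hotspot at mug115 and esc1 had 181 of 318, or 56.9%, with an adjusted p of 0.00150. In the control these hotspots stood at 55.9% and 55.7% beside 55.2% for the locus, with an adjusted p of 0.899 for either. Hot partners were 43.3% and 40.9% at these hotspots beside 48.2% at the locus in the interacting library, with an adjusted p of 0.460 and 0.197. For the control, the locus at 40.5% was below the 47.6% of mug115 and esc1 with an adjusted p of 0.0436, and beside the 45.9% of gti1 the adjusted p was 0.197.

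The left and right hotspot could not be told apart by their partners at this depth. The left hotspot gave 22 and 72 events for the share on other chromosomes, and the right hotspot 147 and 347. That share was 54.5% on the left and 41.5% on the right in the interacting library, with a 95% interval of 32.2% to 75.6% for the left. The control had 59.7% and 54.8%. Hot partners made up 55.0% on the left and 42.6% on the right in the interacting library, and 30.6% and 41.8% in the control. None of the 6 two-sided Fisher's exact tests passed, with an adjusted p from 0.197 to 0.788. At an unadjusted p of 0.05, 0 of them passed either.

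**Figure D4:**
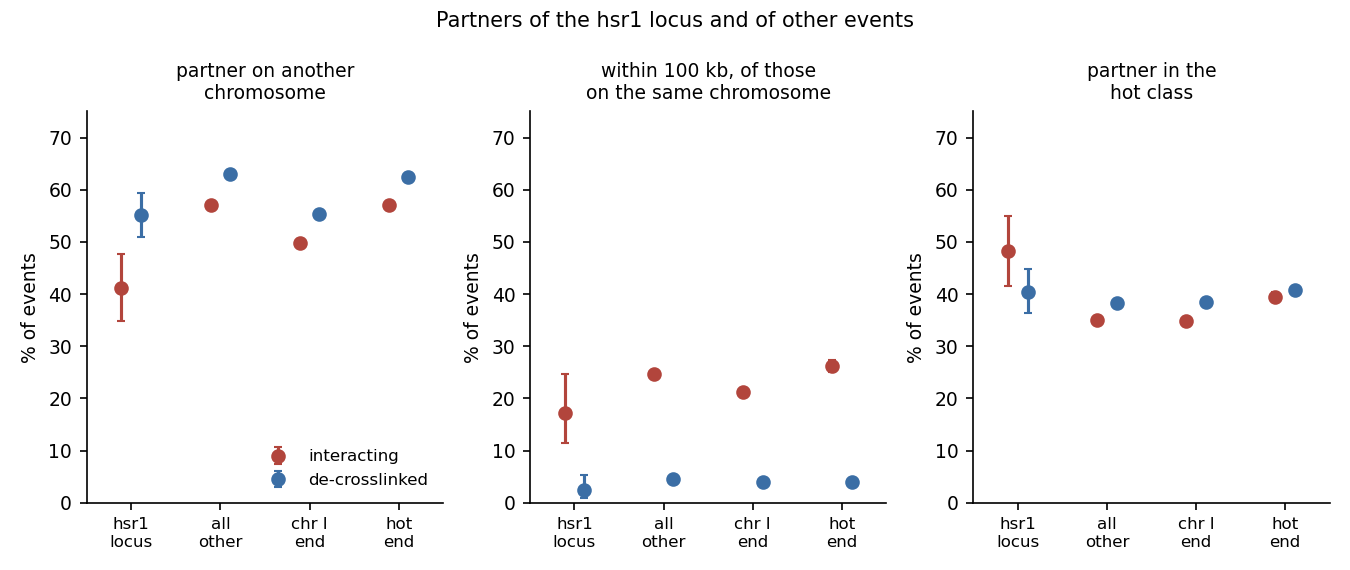
Share of events in percent (vertical) with a partner on another chromosome, with a partner within 100 kb among those on the same chromosome, and with a hot partner, for the locus, for all other events, and for other events seen from an end on chromosome I or from a hot end, in the interacting and de-crosslinked library; bars are Clopper-Pearson 95% intervals. In the interacting library the locus stands at 41.1% for other chromosomes and 48.2% for hot partners, beside 55.2% and 40.5% in the de-crosslinked library.

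Partners were spread thinly over the genome, and few places were met more than once. In 5 kb bins, the interacting events fell in 204 bins, of which 23 held 2 or more events and 8 held 3 or more. The de-crosslinked events fell in 466 bins, of which 65 and 14 did so, and the highest counts were 4 and 5. In both libraries 75 bins were reached, which is 36.8% of the interacting and 16.1% of the de-crosslinked bins. The overlap that the density of ends alone would give was not computed, so this is a count and not a measure of agreement. The repeated interacting bins were the near ones at aru1, avt3, snt2 and sid1, and, farther along chromosome I, mug115 and esc1 with 3 events, where the level from the library's ends was 1.07. Others with 3 events were ayr1 and pho842, the latter a phosphate transporter gene, with a level of 0.299, pfl2 with 0.791, and on chromosome III wtf21 and amt1, the latter an ammonium transporter gene, with 0.485. The hotspot bin of gti1 took 2 interacting and 5 de-crosslinked events, with levels of 0.751 and 2.58. In the control, 3 events fell in each of the bins of fep1, which encodes an iron-sensing transcription factor, of fet4, an iron and zinc transporter gene, and mti2, and of cdc45, a replication initiation gene, and cis4. The interacting library had 0 events there. Of these control events 2 lay in fep1 itself, 0 in fet4 and 1 where cdc45 and cis4 overlap. These counts are too small to set any of these places apart between the libraries.

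Single events could hold many pairs. In the interacting library an event in gti1 held 23 pairs, 1 at the mitochondrial protease gene yme1 on chromosome III held 18, and 1 at the V-ATPase subunit gene vma4 held 15. In the control an event between the amino acid transporter genes cat1 and put4 held 25 pairs, 1 at the adenylate cyclase gene cyr1 on chromosome II held 22, and 1 at mei2, whose RNA-binding product drives entry into meiosis, held 18. Of the locus events 152 and 335 were a single pair. The bins of gti1 and yme1 had a further interacting event of 1 pair each.

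Partner ends lay in coding genes in 62.2% of interacting and 64.7% of de-crosslinked events, where coding genes make up 76.7% of the genome by length. That is not the level from a library's own ends, which was not taken here. Whether partners of the locus differ in this from other ends therefore cannot be told. Another 24.5% and 23.5% lay in noncoding RNA genes alone. The libraries differed by less than 3 percentage points in either share.

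Genes of the stress response and zinc-finger transcription factors, a list that holds hsr1 itself, were joined to the locus in few events, counted within 500 bp of the gene. All 35 listed genes were found, and 25 of them, or 71.4%, overlapped the hot class, against 28.3% of 5113 protein-coding genes. Their median density was 1.45 and 1.47 times that of the median gene. The list was drawn up with earlier results of these data known, so its share is a description. Leaving out hsr1 itself, 5.88% and 11.8% of the listed genes were joined to the locus, against 4.52% and 10.4% of 5112 protein-coding genes, and no test was made on these shares. In the interacting library these were 2 genes, cgs1, which encodes the regulatory subunit of the cAMP-dependent kinase, and ntp1, a trehalase gene. In the control they were 4, namely the stress kinase gene sty1, its target transcription factor atf1, the chaperone gene hsp104 and the thioredoxin reductase gene trr1. The densest on the list was ste11, the regulator of mating and meiosis genes, with 4.72 and 5.67 times the median gene. It stood above hsr1 with 3.79 and 5.33, whose counted span takes in part of the stretch chosen for its ends. Both were followed in the interacting library by the glucose repressor gene scr1 with 2.94 and the zinc-responsive repressor gene loz1 with 2.84. In the control hsp16, a small heat shock protein gene, stood at 4.03 times, scr1 at 2.93 and loz1 at 1.53. By the 500 bp count neither ste11, scr1, loz1 nor hsp16 was joined to the locus, but the hotspot that overlaps ste11 and lies mostly to its left took 1 and 2 locus events. The joined genes named here had 1 event each.

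Junctions with both ends within 500 bp of an event of the other library made up 23 of 245 locus events in the interacting library, or 9.39%, and 23 of 552 in the control, or 4.17%. Over all events the shares were 2.15% and 1.38%. Pairs with both ends at the same bases as a pair of the other library were 2 of the interacting and 1 of the control locus pairs. Some partner ends lay at the same base in both libraries while the locus ends differed. An example is chrIII:2309608, with locus ends at 1956039 in the interacting library and 1955824 in the control. Whether such junctions were shared DNA or repeated joining was not tested. Without them the locus shares were 39.4% and 55.0% for other chromosomes, 17.6% and 2.11% for partners within 100 kb, and 47.6% and 39.9% for hot partners, in the interacting and de-crosslinked library.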

How the data were processed

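Each of the deposited tables holds 1 line per ligated pair, with the chromosome and position of both ends and the authors' hot or cold class; these deposited positions are no score or level, and every count was made here from lines. Per the labels' protocols, cultures of 500 mL were fixed, chromatin was sheared to about 1000 bp, and immunoprecipitates were amplified with Sequenase and made into Nextera libraries of about 300 bp. Per the submitters' processing notes, CASAVA 1.8.0 was used. The aligner, the build, the rule for hot and cold and the curation of the pairs are not given in the sources used here.

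Positions were set against RefSeq assembly ASM294v3. On chromosome I, 0 ends of both libraries lay in the 163234 bp without a unique word, against 144 to 1341 ends after shifts of 50 to 1000 bp, so its genes and sequence were used. Pairs within 500 bp at both ends were linked, with chaining, into 1 event. Each library gave its own level for a place or class, namely the share of all its event ends there. Shares were compared by two-sided Fisher's exact test on events (SciPy 1.17.1), with Benjamini-Hochberg adjustment over the 27 tests of the main setting and a threshold of 0.05. For the rest seen from an end on chromosome I or from a hot end, and for every alternative, the 27 tests were rerun. Each rerun was adjusted on its own, so no adjustment covers all the reported tests together. For the rest of the genome, each event with no locus end was seen from 1 of its ends, taken alternately. Intervals are exact, Clopper-Pearson or Poisson, at 95%, and cover counting error only, since reads without molecular identifiers are not independent molecules. The scripts were tested on simulated data. Depth is the number of pairs: 101984 and 123434. Python 3.11.15, NumPy 2.4.6, pandas 2.3.3, statsmodels 0.14.6 and matplotlib 3.10.9 were used.

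The locus and all lists were chosen with earlier results of these data known, and the locus for its end density, so that density has no test. Genes were named where they overlap or flank the locus, where a 5 kb bin at least 5 kb away held 2 or more locus events, at the 10 events with most pairs in each library, at partners within 100 kb, at other hotspots reached, or on the stress and zinc-finger list, and the text gives examples of these. Motifs were chosen from textbook knowledge. The other 6 samples of the series were not analysed here.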

Additional observations from a re-analysis of the deposited data

How the results depend on the processing

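Between the libraries, the lower share of other chromosomes in the interacting library ran from -19.6 to -12.4 percentage points over 10 alternatives, with an adjusted p of at most 0.0436 by two-sided Fisher's exact test. The higher share within 100 kb ran from 8.80 to 19.7 points over 12 alternatives, with an adjusted p of at most 0.00361, and the share of hot partners from 4.24 to 8.86 points over 10, with an adjusted p from 0.0771 to 0.629. Against the rest of the genome, the lower share of other chromosomes in the de-crosslinked library did not pass when the rest was seen from an end on chromosome I (-0.0741 points), and turned to 0.255 points when seen from a hot end there, an alternative chosen after the data were seen. Both alternatives limit the rest to events with an end on chromosome I. The linking without chaining and the removal of junctions found in both libraries were also chosen after the data were seen.

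The densest bin stood at 22.7 and 32.8 times the level of the median bin in the interacting and de-crosslinked library. It moved to 34.2 and 40.7 in bins of 100 bp, to 26.9 in the de-crosslinked library in bins of 500 bp, and to 29.6 and 26.9 with each event counted once. The hotspot rule gave 4 bins in either library, though not the same 4, where 0.453% of all bins pass in the interacting library and 0.668% in the control. It gave 5 on events in the control (where 0.652% of all bins pass). At 5 times the median 6 bins passed, but the share of all bins that pass there was not taken, so that count is a description only. No paired analysis was possible because each group is 1 library. Depth limits the nearby partners, with 24 and 6 events within 100 kb, and the left hotspot, with 22 interacting events.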
